A study of Mus musculus with 3 samples.

Results

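The transcription factors *Cdx2*, *Elf5*, *Gata3*, *Gata2*, and *Hand1* and the keratins *Krt7*, *Krt8*, *Krt18*, and *Krt19* were examined as genes of the trophoblast lineage. They were chosen by name, and all 9 were found once each among the 55421 named genes of the count table. RNA-seq libraries came from ALSCs, which the labels call embryonic stem cells and which were kept in N2B27 medium with Activin A and LIF on fibronectin. The study itself describes ALSCs as primed stem cells, similar to stem cells of the post-implantation epiblast. The lines were derived from epiblasts dissected at embryonic day 6.5 from ICR females mated with males carrying the GOF/GFP reporter, a GFP transgene driven by regulatory sequence of *Oct4*. The series holds 3 ALSC libraries (replicates 1, 2, and 3) of polyA RNA and no second condition, so every comparison was made between genes or between these libraries. The study describes its RNA-seq data as 3 biological replicates. The study and the labels do not say whether the libraries came from separate lines or cultures. The p-values therefore measure only the spread between these samples, part of which may be technical.

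The trophoblast is the outer epithelium of the blastocyst and the source of the fetal part of the placenta. CDX2, a homeobox factor, and GATA3, a zinc finger factor, act early in the trophectoderm. ELF5, an ETS factor whose promoter is known to be methylated and silent in the embryonic lineage, holds cells in the trophoblast stem cell state. GATA2 works with GATA3 in trophoblast, and HAND1, a basic helix-loop-helix factor, drives trophoblast giant cells but also serves in extraembryonic mesoderm and heart. Keratins build the intermediate filaments of epithelia from pairs of a type II chain (KRT7 and KRT8) and a type I chain (KRT18 and KRT19). *Krt8*, *Krt18*, and *Krt19* are the simple epithelial keratins and are not limited to trophoblast, while *Krt7* is widely used to mark trophoblast cells.

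The libraries held 18088505, 18724038, and 18037342 counts on named genes in replicates 1, 2, and 3. Levels are given as FPKM, the count per kb of gene length scaled to the library's total in the usual way, and as the mean ± SD of the 3 libraries. A level from 3 counts or fewer was read as not detected. On a gene of 1 kb, 3 counts were worth 0.160 to 0.166 FPKM, and such limits cover counting error only. Replicate 1 stood apart from the other libraries. With all 3 libraries, 47.2% of 16944 genes differed in count beyond sampling noise. The share was 42.9% without replicate 2 and 46.7% without replicate 3, and it was 8.11% of 16062 genes without replicate 1 (chi-square test of homogeneity on TMM-scaled library sizes, adjusted p under the threshold of 0.05). The epiblast markers (*Pou5f1*, *Sox2*, *Nanog*, *Fgf5*, *Otx2*, *Dnmt3b*, *Utf1*, and *Pou3f1*) reached 1 FPKM in all libraries for 8 of 8 genes, with summed levels between 1353 and 1364 FPKM.

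Promoters are printed for the pair of expressed neighbours *Krt8* and *Krt18* and for the undetected factors *Cdx2* and *Elf5*. For *Elf5*, window 1 of 2 is printed. Methylation of these windows was not measured. They come from RefSeq on GRCm38.p6 and run from 250 bases before to 50 bases after the RefSeq start. For each printed gene, the count table's gene model begins before that start, so the windows do not show a measured start. Capitals mark CG dinucleotides, the sites of DNA methylation.
*Krt8* promoter (chr15:102004293-102004592, minus strand): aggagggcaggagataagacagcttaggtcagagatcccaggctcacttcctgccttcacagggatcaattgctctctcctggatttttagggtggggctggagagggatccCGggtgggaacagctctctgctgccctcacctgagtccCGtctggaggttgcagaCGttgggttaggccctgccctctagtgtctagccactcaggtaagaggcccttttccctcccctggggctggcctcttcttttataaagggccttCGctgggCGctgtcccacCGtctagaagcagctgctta
*Krt18* promoter (chr15:102027966-102028265, plus strand): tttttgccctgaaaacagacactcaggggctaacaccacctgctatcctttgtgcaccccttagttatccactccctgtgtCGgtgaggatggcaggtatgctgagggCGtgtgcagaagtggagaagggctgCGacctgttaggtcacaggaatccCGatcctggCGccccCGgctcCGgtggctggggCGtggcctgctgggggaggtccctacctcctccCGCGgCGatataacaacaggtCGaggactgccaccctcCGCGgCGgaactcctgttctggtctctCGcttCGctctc
*Cdx2* promoter (chr5:147307200-147307499, minus strand): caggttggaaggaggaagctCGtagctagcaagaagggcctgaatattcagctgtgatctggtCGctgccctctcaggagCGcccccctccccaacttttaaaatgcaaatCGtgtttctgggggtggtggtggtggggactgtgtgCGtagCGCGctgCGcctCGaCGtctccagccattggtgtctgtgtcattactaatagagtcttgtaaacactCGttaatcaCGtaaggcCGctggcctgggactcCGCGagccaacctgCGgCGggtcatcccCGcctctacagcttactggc
*Elf5* promoter (chr2:103411848-103412147, plus strand): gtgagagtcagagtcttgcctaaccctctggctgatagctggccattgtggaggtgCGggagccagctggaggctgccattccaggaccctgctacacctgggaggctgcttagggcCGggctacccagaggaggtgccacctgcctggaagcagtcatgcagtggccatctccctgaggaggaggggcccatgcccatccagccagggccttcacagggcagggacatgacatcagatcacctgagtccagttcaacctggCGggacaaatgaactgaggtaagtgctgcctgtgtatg
RefSeq promoter windows were matched for 7 of the 9 genes, and *Hand1* and *Krt19* had no entry. The *Krt8* window held 6 CG dinucleotides and the *Krt18* window 17. Among the undetected factors, the windows held 18 for *Cdx2*, 22 for *Gata3*, 32 and 29 for the 2 windows of *Gata2*, and 3 and 10 for the 2 windows of *Elf5*. The *Krt7* window, of a gene at a low level, held 21. Over 32817 promoters of the same length the median was 7, with quartiles of 3 and 20. Thus, the number of CG dinucleotides did not separate the keratins from the undetected factors. The letters TATAAA were found on either strand in 13.6% of all windows and in 1 of the 9 windows of these genes, that of *Krt8*. There, 2 matches on opposite strands overlapped, with starts 3 and 1 bases before the RefSeq start. GATAA, the core read by GATA factors, occurred once each in the windows of *Krt8* and *Krt18* and in the second window of *Elf5*, against 25.4% of all windows. These matches describe letters only.

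The study also designed RT-qPCR primers for 4 of these genes. They are printed because *Krt8*, and *Krt18* to a small extent, share sequence with other annotated transcripts.
*Krt8* forward primer: tccatcagggtgactcagaaa
*Krt8* reverse primer: ccagcttcaaggggctcaa
*Krt18* forward primer: cagccagcgtctatgcagg
*Krt18* reverse primer: cTttctcggtctggattccac
The *Krt8* pair matched transcripts of 1 gene in GENCODE M21, *Krt8*, with an amplicon of 250 bases. Its forward primer alone also matched the pseudogene *Krt8-ps* and the antisense RNA *Gm36026*. The *Krt18* forward primer matched *Krt18* and the pseudogene *Gm5200*. The *Krt18* reverse primer had no exact match in any transcript and differed from the *Krt18* transcript at 1 base, T2C (the capital, position counted from the 5′ end of the primer, with the transcript's base read on the primer's strand). The primers for *Cdx2* and *Hand1* each matched only their own gene, with amplicons of 242 and 110 bases.

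The 9 genes fell into keratins with many reads and factors with almost none. *Krt8*, *Krt18*, and *Krt19*, 3 of the 9, reached 1 FPKM in every library, as did 45.7% of 21926 protein-coding genes and 20.1% of all named genes. *Krt7* was detected below that level. None of the 5 transcription factors exceeded 3 counts in a library. That was also the case for 67.2% of named genes, 34.6% of protein-coding genes, and 25.4% of the 1530 genes to which the table gives a transcription factor family, of which 47.5% reached 1 FPKM in every library. The median level of the 9 genes was 0.0139 FPKM, which is that of *Gata3* and was read as not detected. Over all named genes, most of which had 3 counts or fewer in every library, the median was 0 FPKM. RNA-seq of bulk cultures cannot tell apart fewer cells of a type and less RNA per cell.

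**Figure D1:**
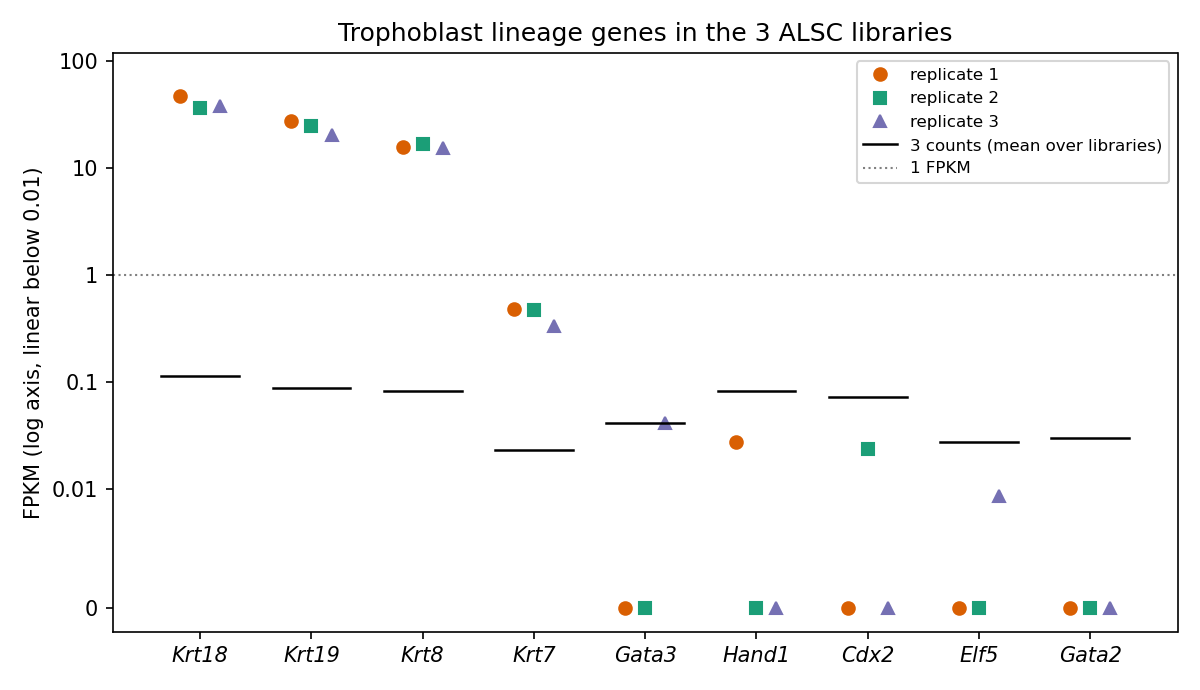
FPKM of the 9 trophoblast lineage genes in ALSC replicates 1, 2, and 3 (points), on a log axis that is linear below 0.01, with the level of 3 counts for each gene (black line) and 1 FPKM (dotted line). The black line is the mean of the 3-count levels of the libraries. The points of *Krt18*, *Krt19*, and *Krt8* lie between 15.5 and 47.7 FPKM, and those of *Krt7* between 0.338 and 0.486 FPKM. No transcription factor exceeded 3 counts in a library. The point of *Gata3* in replicate 3, from 3 counts (0.0418 FPKM), lies just above its line (0.0413 FPKM).

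Among the factors, *Gata2* (ENSMUSG00000015053; GRCm38 chromosome 6, 88193891 to 88207032) had no count in any library. For its length, 3 counts would be 0.0297 to 0.0308 FPKM. *Cdx2* (ENSMUSG00000029646; chromosome 5, 147300805 to 147307270) had 0, 1, and 0 counts in replicates 1, 2, and 3. *Elf5* (ENSMUSG00000027186; chromosome 2, 103411688 to 103450989) had 0, 0, and 1 counts. A read on *Cdx2* or *Elf5* was thus seen in only 1 library each. *Hand1* (ENSMUSG00000037335; chromosome 11, 57828705 to 57832818) had 1, 0, and 0 counts, and *Gata3* (ENSMUSG00000015619; chromosome 2, 9857078 to 9890034) had 0, 0, and 3. Together, the 5 factors took 6 of the 54849885 counts of the 3 libraries. The order of the 5 among themselves was not resolved, since each pair of neighbours overlapped in range. Taking 3 counts per library as the limit, the level of *Krt18* was at least 499-fold higher than that of *Hand1* and at least 1467-fold higher than that of *Elf5*. With the length of the longest coding transcript in place of the table's length, the bound was 475-fold for *Hand1* and 632-fold for *Elf5*.

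Sequence shared with other genes was scarce for the factors. Of the 50-base words in the longest coding transcript, 100% were found in no other gene for *Cdx2*, *Elf5*, *Gata2*, and *Hand1*, and 98.1% for *Gata3*, whose antisense RNA *Gm13256* shares the rest and had no count. The genes *4930412O13Rik* and *9230102O04Rik*, which overlap *Gata3*, had no count either. Gene length does bear on the limits. For *Elf5*, the table's length of 5877 bases joins the exons of all 7 annotated transcripts and is 2.32 times the longest coding transcript of 2532 bases. Genes close to the factors were expressed in part. *Cat*, which encodes catalase and lies 2.86 kb from *Elf5* on the opposite strand, was at 50.5 ± 2.84 FPKM (SD, n = 3). *Sap30l*, 18.5 kb from *Hand1*, was at 23.0 ± 3.61 FPKM (SD, n = 3). By contrast, the protein-coding neighbours of *Cdx2*, *Pdx1* at 24957 bases and *Urad* at 7714 bases, had no count. Nor did *Dnajb8*, 15.2 kb from *Gata2*. Farther neighbours were *Rpn1*, 88.6 kb from *Gata2*, at 48.2 ± 2.21 FPKM and *Larp1*, 176 kb from *Hand1*, at 51.5 ± 8.40 FPKM (SD, n = 3 for both). *Taf3*, 24.5 kb from *Gata3*, was at 3.70 ± 0.268 FPKM (SD, n = 3).

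The relatives of the factors were looked at in a list of 12 genes, of which 2 (*Elf2* and *Elf3*) reached 1 FPKM in all libraries and 6 did not exceed 3 counts in any. Among the 1530 genes with a transcription factor family, the shares were 47.5% and 25.4%. *Elf3*, an epithelial ETS factor close in sequence to *Elf5*, had 147, 154, and 134 counts and a level of 3.58 ± 0.196 FPKM (SD, n = 3). The broadly expressed *Elf2* was at 6.16 ± 0.650 FPKM, and *Elf4* at 1.37 ± 0.383 FPKM (SD, n = 3). *Ehf*, the nearest protein-coding gene on the other side of *Elf5*, had 3, 3, and 2 counts. Of the 5 ETS genes of this list, *Ehf* was thus the one not detected, as was *Elf5* itself. Of the other GATA genes, *Gata1*, known for its role in red blood cells, was the highest at 0.372 ± 0.166 FPKM (SD, n = 3), from 20, 22, and 8 counts. *Gata6*, an endoderm factor, had 11, 13, and 10 counts, while *Gata4* and *Gata5* had at most 3 in any library. The paralogs *Cdx1* and *Hand2* had no count, and *Cdx4* had 0, 0, and 1.

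*Krt18* (ENSMUSG00000023043; chromosome 15, 102028180 to 102032027, plus strand) was the highest of the 9 genes. It had 1241, 998, and 987 counts in replicates 1, 2, and 3, or 47.7, 37.1, and 38.1 FPKM. Replicate 1 was the high one, and replicates 2 and 3 lay close to each other. The mean of 41.0 ± 5.89 FPKM (SD, n = 3) exceeded the mean of 86.9% of the 11125 genes that reached 1 FPKM in each library. *Krt19* (ENSMUSG00000020911; chromosome 11, 100140810 to 100148665, minus strand), a type I chain without the usual tail domain, had 934, 871, and 680 counts, or 27.8, 25.1, and 20.3 FPKM. Here replicate 3 was the low one. Its mean was 24.4 ± 3.80 FPKM (SD, n = 3), which exceeded 78.7% of the means of the same genes.

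*Krt8* (ENSMUSG00000049382; chromosome 15, 101996698 to 102004482, minus strand), the type II partner of both, had 565, 616, and 549 counts, or 16.0, 16.8, and 15.5 FPKM. The libraries lay close together, with a mean of 16.1 ± 0.642 FPKM (SD, n = 3). *Krt7* (ENSMUSG00000023039; chromosome 15, 101411043 to 101430313, plus strand) had 62, 63, and 43 counts, or 0.486, 0.477, and 0.338 FPKM, with a mean of 0.434 ± 0.0830 FPKM (SD, n = 3). It was under 1 FPKM in every library, yet far above the 0.0227 to 0.0236 FPKM of 3 counts. With the gene lengths of the count table, the level of *Krt8* was 37.1 times that of *Krt7*.

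The order *Krt18*, *Krt19*, *Krt8*, *Krt7* was seen in 3 of 3 libraries, and the ranges of neighbours in that order did not overlap. A sign test over 3 libraries cannot give a two-sided p below 0.25. The ratio of *Krt8* to *Krt18* was 0.334, 0.453, and 0.408 in replicates 1, 2, and 3, and 0.398 ± 0.0600 on average (SD, n = 3). The summed type II chains (*Krt7* and *Krt8*) came to 0.256 ± 0.0333 of the summed type I chains (*Krt18* and *Krt19*; SD, n = 3). Type I transcripts thus outnumbered type II transcripts in each library.

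Uniqueness of sequence touched *Krt8* more than the other keratins. Only 70.3% of the 50-base words of its transcript occurred in no other gene, against 99.3% for *Krt18*, 99.8% for *Krt7*, and 100% for *Krt19*. The processed pseudogene *Krt8-ps* shares 514 of these words, or 26.9%, and was counted at 2, 2, and 3. How reads with several matches were counted is not given in the sources used here. If all reads of shared words were lost and length is scaled by the unique share, *Krt8* would be at 22.9 ± 0.913 FPKM (SD, n = 3). Its range would then overlap that of *Krt19*, which it would exceed in replicate 3 (22.1 against 20.3 FPKM) and stay below in replicates 1 and 2. The ratio of *Krt8* to *Krt18* would be 0.563 ± 0.0848 (SD, n = 3). Gene length mattered for *Krt7*, whose 7049 bases in the table are 1.72 times its longest coding transcript of 4094 bases. With that transcript length *Krt7* was at 0.747 ± 0.143 FPKM (SD, n = 3), still under 1 FPKM in each library. *Krt19*, whose length in the table is 1.18 times its longest coding transcript, moved less, from 24.4 to 28.7 FPKM.

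**Figure D2:**
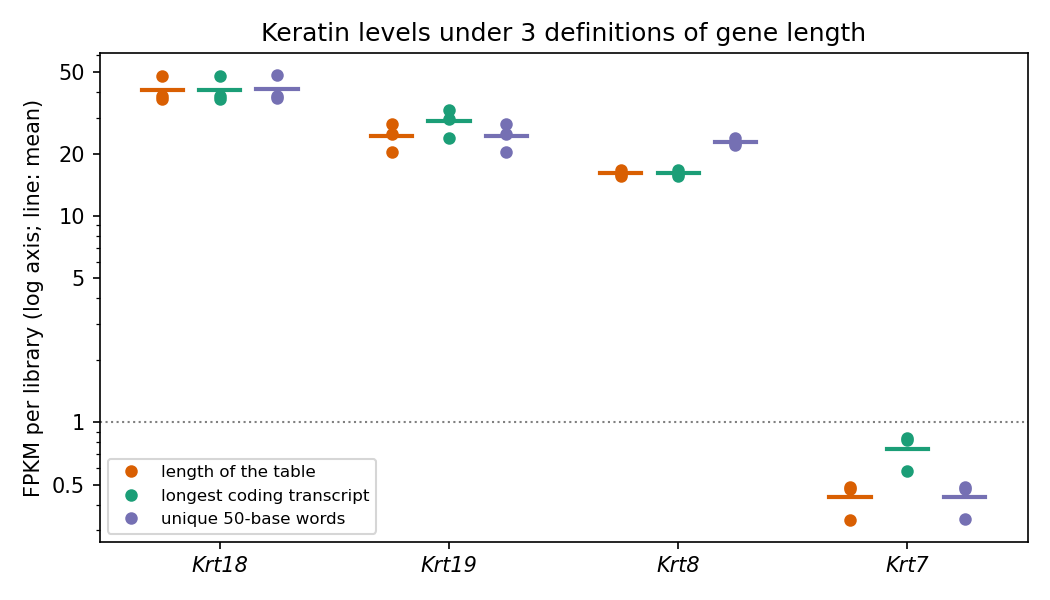
FPKM of *Krt18*, *Krt19*, *Krt8*, and *Krt7* in each library (points, with the mean as a line, on a log axis) with the table's gene length, the longest coding transcript, or the table's length scaled by the share of unique 50-base words. *Krt8* moves from 16.1 to 22.9 FPKM with unique words. With transcript length, *Krt7* moves from 0.434 to 0.747 FPKM and *Krt19* from 24.4 to 28.7 FPKM. *Krt18* stays near 41 FPKM.

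Keratin genes lie in 2 clusters, and expression within them was restricted to few members. Of 53 protein-coding keratins, 5 reached 1 FPKM in each library, 37 did not exceed 3 counts in any, and 29 had no count at all. Among all protein-coding genes, 45.7% reached 1 FPKM in each library and 34.6% did not exceed 3 counts in any. *Krt8*, *Krt18*, and *Krt19* together held 91.8% ± 0.563 of the summed keratin FPKM (SD, n = 3). The cluster on chromosome 15 (101347444 to 102032027) holds 26 keratins, of which *Krt8* and *Krt18* were the 2 at 1 FPKM or more. They sit side by side at its end, 23.7 kb apart, on opposite strands, although *Krt18* encodes a type I chain. *Krt78*, on the other side of *Krt8*, had 5, 0, and 0 counts, and *Krt79*, which follows it, is listed at 1, 0, and 0. *Krt7* stands near the opposite end, and its neighbour *Krt87*, 0.725 kb away, had 2, 1, and 0 counts. The antisense RNAs *Gm36026* at *Krt8* and *Gm671* at *Krt7* had no count. On the side of *Krt18* away from the keratins, the translation factor gene *Eif4b* was at 177 ± 18.9 FPKM (SD, n = 3).

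On chromosome 11 (99232761 to 100269871), 3 of 27 keratins were at 1 FPKM or more. Besides *Krt19*, they were *Krt10*, a partner of *Krt1* in the suprabasal epidermis, at 3.21 FPKM, and *Krt17*, a keratin of skin appendages, at 1.46 FPKM. The next highest keratins were *Krt42* at 0.548 FPKM, *Krt222* at 0.483 FPKM, and *Krt16* at 0.222 FPKM. *Krt15*, 4.88 kb from *Krt19*, had 6, 1, and 5 counts, and *Krt9* on the other side had none.

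**Figure D3:**
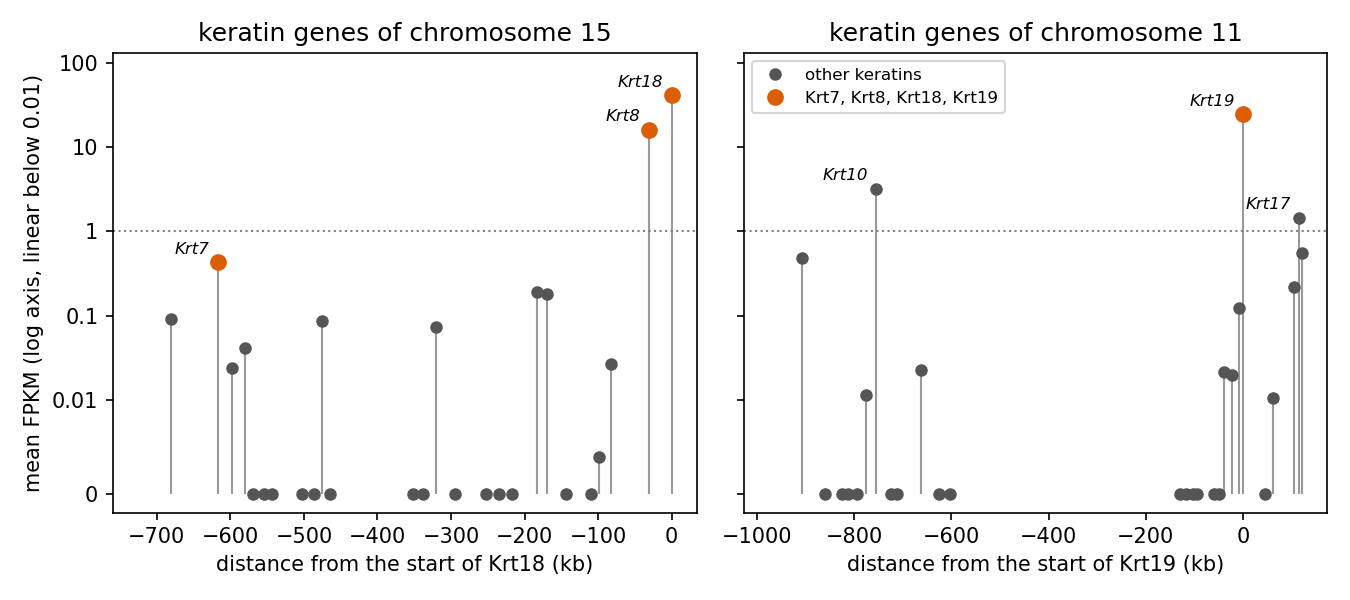
Mean FPKM of the protein-coding keratin genes (log axis, linear below 0.01) against the distance in kb from the start of *Krt18* on chromosome 15 and of *Krt19* on chromosome 11. *Krt8* and *Krt18* stand together at the right end of the chromosome 15 cluster, and only *Krt19*, *Krt10*, and *Krt17* lie above 1 FPKM (dotted line) on chromosome 11.

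Keratins were not the only intermediate filaments. Of 12 other filament genes, 10 reached 1 FPKM in each library, beside 45.7% of protein-coding genes. *Vim*, the filament of mesenchymal cells and of many cultured cells, was at 72.5 ± 5.29 FPKM (SD, n = 3) and exceeded *Krt18* in every library. *Nes* was at 34.3 FPKM and the neuronal filaments *Prph* and *Ina* at 21.6 and 18.9 FPKM. The FPKM of the protein-coding keratins and of the listed filament genes other than the nuclear lamins was summed. Keratins made up 34.5% ± 2.15 of this sum and *Vim* 28.2% ± 0.911 (SD, n = 3 for both). Filament genes outside the list were not summed. The 13 epithelial junction genes all reached 1 FPKM in each library. *Epcam* was at 116 ± 11.1 FPKM, *Cdh1* (E-cadherin) at 25.2 ± 3.51 FPKM, and *Cldn6* at 17.7 ± 0.881 FPKM (SD, n = 3 for each). *Dsp* (desmoplakin) and *Plec* (plectin), which tie keratin filaments to the membrane and to other fibres, were at 3.63 ± 1.13 and 3.78 ± 1.18 FPKM (SD, n = 3 for both).

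The wider trophoblast stem cell network was mixed. Of 11 genes, 5 (*Klf5*, *Id2*, *Bmp4*, *Ets2*, and *Eomes*) reached 1 FPKM in each library, as did 45.7% of protein-coding genes. Each of the 11 exceeded 3 counts in at least 1 library. *Eomes*, a T-box factor of trophoblast and primitive streak, had 91, 117, and 93 counts and was at 1.32 ± 0.161 FPKM (SD, n = 3). *Ets2* was at 3.08 ± 0.206 FPKM and *Bmp4*, a ligand made by the extraembryonic ectoderm, at 4.13 ± 0.302 FPKM (SD, n = 3 for both). *Tead4*, the Hippo pathway factor upstream of *Cdx2*, was at 0.782 ± 0.326 FPKM from 30, 75, and 50 counts. *Fgfr2*, the FGF receptor of trophoblast stem cells, was at 0.206 ± 0.0312 FPKM (SD, n = 3). Several of these genes, among them *Klf5* and *Esrrb*, also act in pluripotent cells and do not mark trophoblast alone.

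Genes of differentiated trophoblast were mostly without reads. Of 14 genes, 12 did not exceed 3 counts in any library, beside 34.6% of protein-coding genes, and 9 had no count. Those without a count included *Tpbpa* of the spongiotrophoblast, *Synb* of the syncytiotrophoblast, and the placental lactogens *Prl3d1* and *Prl3b1*. *Prl3d1*, *Prl2c2*, *Ctsj*, and *Rhox6* belong to families of near copies, so their counts are uncertain. *Ascl2*, an imprinted factor of spongiotrophoblast precursors, was the exception at 1 FPKM or more, with 89, 92, and 95 counts and 3.10 ± 0.125 FPKM (SD, n = 3). *Plac1* had 12, 13, and 6 counts.

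Simple keratins also occur in endoderm, mesothelium, and surface ectoderm, so markers of other cell types are given beside them. Of 8 mesoderm markers, 0 reached 1 FPKM in each library and 3 did not exceed 3 counts in any. The shares over all protein-coding genes were 45.7% and 34.6%. Of 8 endoderm markers, 2 (*Cer1* at 5.14 FPKM and *Foxa2* at 1.96 FPKM) reached 1 FPKM, while *Sox17* was at 0.268 FPKM and *Ttr* had no count. Of 8 surface ectoderm markers, *Grhl3* at 2.43 FPKM was the one at 1 FPKM or more, and *Trp63* had 3, 0, and 0 counts. The fibroblast genes *Dcn* and *Lum* had no count and *Col3a1* at most 3, whereas *Thy1*, *Col1a1*, and *Pdgfrb* were above 1 FPKM. The summed level over the libraries was 2.05 to 2.28 FPKM for mesoderm, 6.93 to 8.11 FPKM for endoderm, 2.49 to 2.90 FPKM for surface ectoderm, and 12.8 to 14.6 FPKM for fibroblast markers. The summed level of the 9 trophoblast lineage genes was 74.3 to 92.0 FPKM, nearly all from 3 keratins. The part of other cell types in the keratin levels was not tested.

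**Figure D4:**
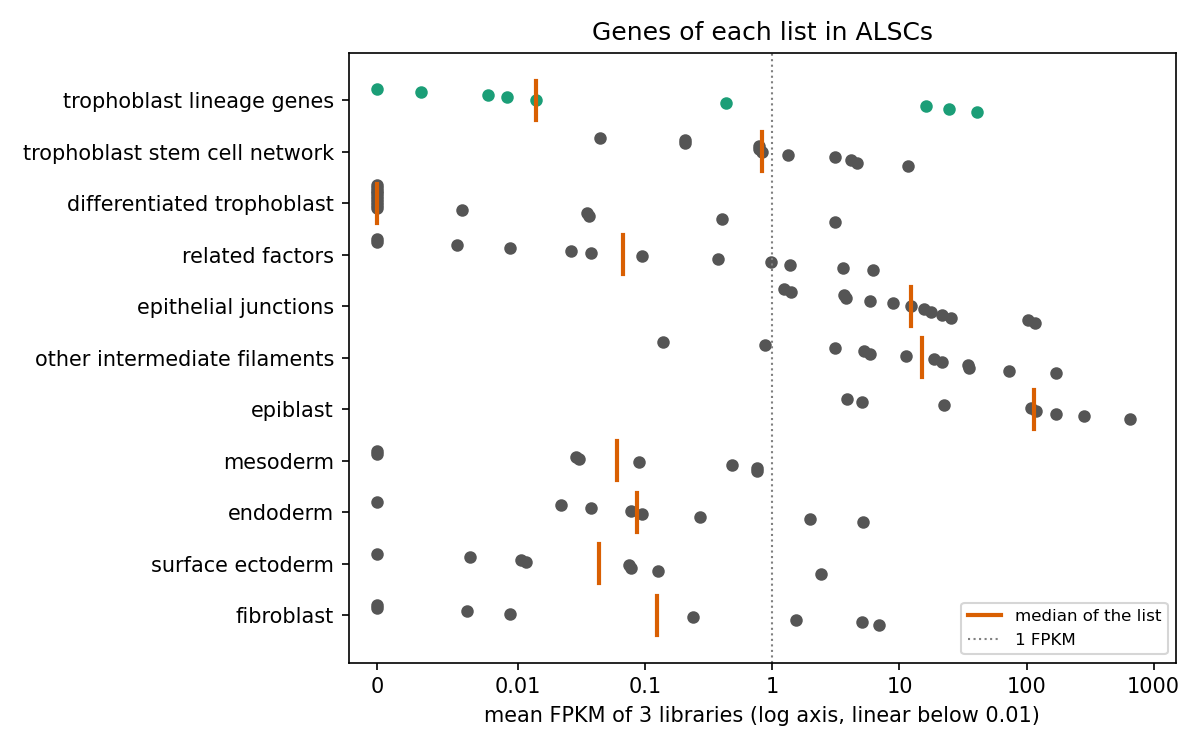
Mean FPKM over the 3 ALSC libraries of each gene (points; log axis, linear below 0.01) in the trophoblast lineage genes (green) and the other lists (grey), with list medians (orange) and 1 FPKM (dotted line). The median is 0.0139 FPKM for the trophoblast lineage genes, 0 for differentiated trophoblast, 0.829 FPKM for the trophoblast stem cell network, 12.3 FPKM for epithelial junctions, and 114 FPKM for epiblast markers.

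Between libraries, the counts of *Krt18* and *Krt19* differed by more than sampling noise, and those of *Krt8* and *Krt7* were not shown to differ. The 5 factors had too few counts to be tested. So 2 of the 4 tested genes were called, beside 47.2% of all genes tested. This test treats reads as independent molecules and compares these libraries only. On the TMM scale, *Krt18* in replicate 1 was 1.36 times its value in replicate 2 (log2 ratio 0.44, 95% counting interval 0.32 to 0.56) and 1.31 times that in replicate 3 (chi-square test over the 3 libraries, adjusted p = 8.57e-14). Replicates 2 and 3 were not shown to differ, with a log2 ratio of -0.06 (-0.19 to 0.07) and an adjusted p of 0.662 without replicate 1. The call was also lost once trends with length and GC were taken out (adjusted p = 0.248, chi-square test), where replicate 1 over the other two had a log2 ratio of 0.10 in place of 0.42.

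*Krt19* kept its call in both settings. The adjusted p was 9.26e-11 with all libraries, 0.00397 without replicate 1, and 0.000261 with those trends taken out (chi-square test). Replicate 3 was lowest, with replicate 1 at 1.43 times and replicate 2 at 1.22 times its value. *Krt8* had an adjusted p of 0.561, and its interval for replicate 1 over replicate 2 ran from -0.16 to 0.17 on the log2 scale. *Krt7* had an adjusted p of 0.174 (chi-square test), and its intervals were wide, from 0.02 to 1.14 for the log2 ratio of replicate 1 to replicate 3. With the length and GC trends taken out, the adjusted p was 0.0965 for *Krt8* and 0.0631 for *Krt7* (chi-square test). The log2 ratio of replicate 1 to the other libraries was then -0.17 for *Krt8*, in place of 0.05. For *Krt7* it was 0.53, in place of 0.32. The coefficient of variation after TMM scaling was 17.4% for *Krt18*, 17.6% for *Krt19*, and 3.69% for *Krt8*. The median was 10.8% over the 10577 genes whose counts averaged 100 or more. *Krt7* was at 20.2%, but its 62, 63, and 43 counts place it outside that set. Sampling noise is larger at such counts, so its value is not comparable with that median.

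**Figure D5:**
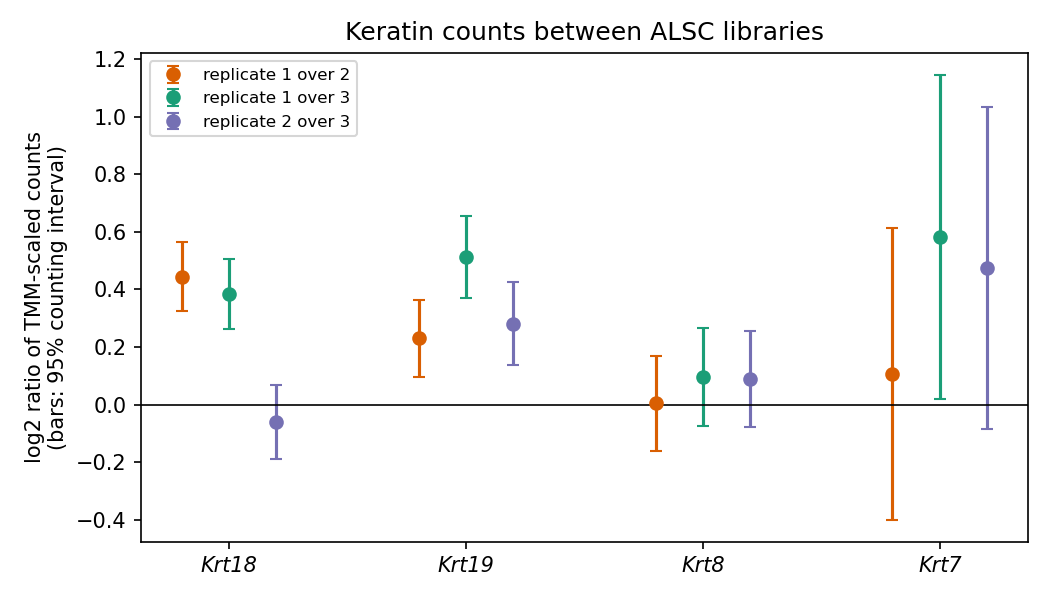
Log2 ratio of TMM-scaled counts between pairs of ALSC libraries for 4 keratins, with 95% counting intervals as bars. The intervals of *Krt18* exclude 0 for replicate 1 against each other library, those of *Krt19* exclude 0 for all 3 pairs, and those of *Krt8* include 0 for all 3 pairs.

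For the called keratins, genes with the most similar pattern over the 3 libraries were listed by the distance of centred log2(CPM + 1) values. For *Krt18* these were *Dph5*, *Tpt1*, and *Rps16*, at distances of 0.00137 to 0.00318, and 354 of the 10576 genes compared lay within 0.05. For *Krt19* they were *Cnih2*, *Gm5855*, and *Ppp1r14a*, at 0.00997 to 0.0224, with 13 genes within 0.05. With 3 libraries, such likeness describes these samples only. Other lists are given beside the share over all genes tested. That share was 47.2% of 16944 genes with all libraries and 8.11% of 16062 without replicate 1. With the length and GC trends taken out, 6425 of the 16944 genes varied. Whether a list differed from these shares was not tested. Of the related factors, *Elf1*, *Elf2*, and *Elf4* varied (3 of 6 tested). All 3 kept their calls with the length and GC trends taken out, and *Elf1* and *Elf2* (2 of 6) did so without replicate 1. In the trophoblast stem cell network, *Tead4* (adjusted p = 0.00122, chi-square test) and *Esrrb* (adjusted p = 0.0399, chi-square test) varied among 10 tested genes, each lowest in replicate 1. With the trends taken out *Tead4* kept its call (adjusted p = 0.00197, chi-square test) and *Esrrb* lost it (adjusted p = 0.238, chi-square test), and neither was called without replicate 1. Of the 13 epithelial junction genes, 9 varied with all libraries, 6 of these did with the trends taken out, and 0 did without replicate 1. Of the 8 epiblast markers, 5 varied with all libraries, 4 with the trends taken out, and 3 without replicate 1.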

How the data were processed

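The authors sequenced polyA RNA of 3 ALSC libraries in paired-end mode and aligned it to GRCm38, and the submitters' processing notes name HISAT2 2.0.5. The counting program, its annotation, the strand setting, and the handling of reads with several matches are not given in the sources used here. The authors deposited raw counts per gene with gene position and length, without normalization. A set of 3 further columns, named for another cell type, matched no sample of this series and was not used. The table has 55738 rows, and the 317 without a gene name (0.165% to 0.182% of counts) were left out.

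From the counts, FPKM was computed with the table's gene length and the total on named genes. Variation between libraries was tested by a chi-square test of homogeneity against TMM library sizes (edgeR 4.0.16 in R 4.3.3; DESeq2 1.42.0 size factors as an alternative) where the 3 libraries summed to 10 counts or more, and p-values were adjusted by Benjamini-Hochberg over all genes tested. The test was run on simulated counts with sampling noise alone, in which some genes were raised in a library. That check did not cover further spread between libraries. Length and GC trends were taken as medians of 20 groups of genes whose counts averaged 100 or more. Transcript lengths, GC content, and shared 50-base words came from GENCODE M21 on GRCm38, whose coordinates for the 9 genes equal those of the table. Promoters came from RefSeq on GRCm38.p6. Computation used SciPy 1.17.1 and pandas 2.3.3 under Python 3.11.15, and plots used matplotlib 3.10.9. The members and lists were chosen with earlier results of these data known. Named were all 9 genes, list genes that a sentence turns on, the 5 highest other keratins, neighbouring genes, pseudogenes of the members, and the 3 genes closest in pattern to each called member. Alternatives covered library size, filters, thresholds, units, gene length, pseudogene counts, length and GC trends, and leaving out each replicate.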

Additional observations from a re-analysis of the deposited data

How the results depend on the processing

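No paired analysis was possible because all libraries belong to 1 condition. The number of the 9 genes that varied was 2, and it was 1 (*Krt19*) once length and GC trends were taken out. Leaving out a replicate gave 1 to 2, with 1 without replicate 1. Over all genes, 8003 varied, and leaving out a replicate gave 1302 to 7490, the lowest again without replicate 1. Scaling length by the share of unique words, added after seeing the data, moved the summed type II over type I ratio from 0.256 to 0.359 and *Krt8* over *Krt18* from 0.398 to 0.563. The same setting left 2 of the 3 neighbouring keratin pairs with ranges apart, since *Krt8* and *Krt19* then overlapped. Leaving out a replicate moved these ratios to between 0.245 and 0.275 and between 0.371 and 0.431. The count of 3 genes at 1 FPKM or more held at 0.5 and 5 FPKM, on the TPM scale, and with transcript lengths, an alternative also added after seeing the data. Depth limited the 5 factors, whose 0 to 3 counts per library allow low levels that these libraries could not detect.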
